A study of Mus musculus with 9 samples.

Results

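Cultures of mouse embryonic fibroblasts (MEFs) that expressed neuronal reprogramming factors were compared between day 10 and day 7 of reprogramming. The comparison was between 3 libraries of day 10 and 3 of day 7, which pair by genotype: WT, Per1-/- and Per2-/-. Cell barcodes with at least 3000 UMI (unique molecular identifiers, each counting 1 captured RNA molecule) and at most 20% mitochondrial UMI were kept. This left 54101 cells in the 6 libraries, of 81999 in the 9 libraries of the series. The 3 libraries of day 4 served to estimate the spread and to show the course before day 7.

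All cultures were MEFs from embryos of day 13.5 with head and heart removed, and each dish held cells of 4 embryos of undetermined sex. Lentiviruses carried reprogramming factors, Brn2 (gene Pou3f2) and Myt1l among them, under a doxycycline-driven promoter together with the activator M2rtTA, and days were counted from the change to N3 medium with doxycycline. The mutant mice carried the alleles Per1tm1Drw and Per2tm1Drw, which disrupt a clock gene in every cell of the animal. There was 1 library per genotype and day. A p-value for day 10 against day 7 therefore rests on how far the changes between days, day 4 included, differ across genotypes. It does not rest on a spread between replicate cultures. The genotypes also differ in the embryos used. The labels call the cells induced neurons, yet cells with at least 4 of 12 neuronal markers were 4.29% to 10.5% of the cells in these 6 libraries.

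Brn2 is a POU factor that acts at neuronal genes, and Myt1l represses non-neuronal genes. Cells that convert leave the cell cycle, extend neurites and later build the machinery of synaptic release. A MEF culture also holds cells of other lineages of the embryo trunk, such as macrophages, Schwann cells of the peripheral nerves and precursors of adipocytes, and these can grow or mature in the dish beside the converting cells. In bulk sums of a culture, fewer cells of a type and less RNA per cell cannot be told apart.

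The kept cells had median depths of 21488 to 25668 UMI on day 7 and of 11514 to 18629 UMI on day 10. The library of WT on day 10 stood apart. Of its barcodes 55.4% were kept, against 87.1% to 94.2% in the other 5 libraries, and 43.8% of its kept cells had under 8000 UMI. Its macrophage-gated cells had a median of 4952 UMI, and at least 6 of 12 fibroblast markers were found in 71.3% of them, where the remaining libraries had 13.5% to 18.2%. Of 53779 distinct barcodes, 321 occurred in 2 or more of the 6 libraries. The gene tables also differed between the days, with 31053 genes for days 4 and 7 and 32285 for day 10, of which 30406 identifiers were shared and were used. Day 10 and its gene table therefore cannot be told apart in a comparison of levels. A difference between 2 kinds of cells of the same libraries has the table in common. The part of the table in a gene's value need not be equal in both kinds, so it may not cancel there, which was not tested.

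In whole cultures 259 of 18691 genes tested were higher on day 10 (1.39%) and 36 were lower (0.193%) by edgeR at an adjusted p under 0.05. At an unadjusted p under 0.05 the shares were 5.98% and 4.21%. Many of these calls lay where the gene tables differ or in 1 stretch of the chromosome numbering. Of the 295 calls, 112 (38.0%) overlapped an exon of another gene on the same strand, against 7.21% of the other genes tested, and 96 overlapped a gene that only 1 of the tables holds. Among genes with no overlap, 3.23%, 5.73% and 4.49% of those on chromosomes 17, 18 and 19 were called, and 0.362% to 1.2% on every other chromosome plotted. With both kinds of gene set aside, 97 rose (0.625% of 15523) and 13 fell (0.0837%).

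**Figure D1:**
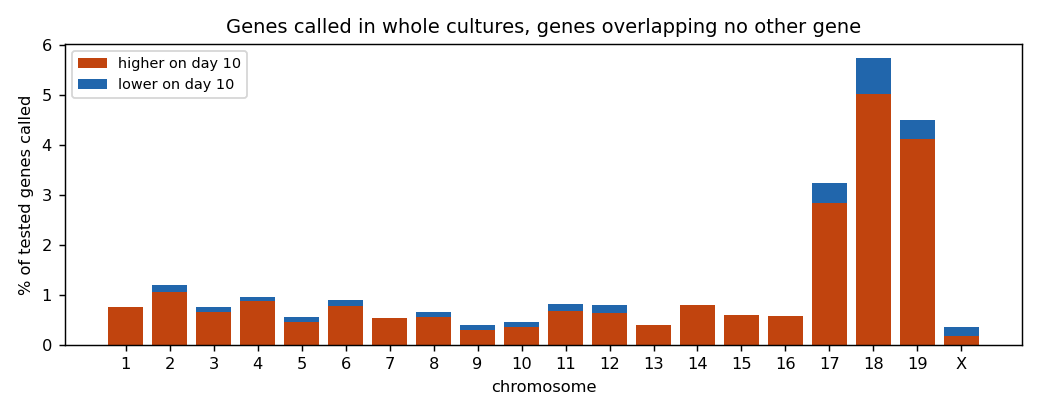
Percent of tested genes called in whole cultures on each chromosome, by direction, over genes that overlap no other gene on the same strand. The bars of chromosomes 17, 18 and 19 reach 3.23%, 5.73% and 4.49%, and no other bar exceeds 1.2%.

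Among genes with a mean of at least 10 CPM (UMI of the gene per 1000000 UMI of the sum), the largest changes in level were of this kind. Mrpl53, a subunit of the mitochondrial ribosome, was at 0.695, 0.387 and 1.01 CPM on day 7 in WT, Per1-/- and Per2-/- and at 78.9, 80.7 and 98.8 CPM on day 10, a log2 change of 6.97 ± 0.35 (SE; adjusted p = 3.89e-05). Ptp4a1, a protein tyrosine phosphatase, went the other way, from 89, 96.6 and 89.2 CPM to 1.23, 1.18 and 1.04 CPM (log2 change -6.32 ± 0.11, adjusted p = 3.54e-07). On day 4 Ptp4a1 had been at 104, 97.5 and 82.6 CPM. Its log2 change was -6.17 in macrophage-gated, -7.31 in neuron-gated and -6.25 in fibroblast-gated cells, and that of Mrpl53 was 7.37, 6.77 and 6.88 there. The 10 largest rises further held Fdx2, Hgs, Rnasek, Atp6v0c, Fam89b, Cpne1, Nanp and Galnt2, and the 10 largest falls Rps6ka4, Coro1b, Fam220a, Chtf8, Rnf149, Nxf1, Taf6l and Srf. Each of these overlaps another gene or lies on chromosome 17 or 19. The part of the gene table in these values was not tested. Only Adipoq among the 10 rises and Myt1l among the 10 falls were in neither class.

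Adipoq belongs to the genes of adipocytes. Adipogenesis is driven by Pparg and Cebpa, which switch on lipid droplet proteins, fatty acid carriers and the hormones that fat cells secrete. Of the adipogenesis list, 17 of 18 genes were tested, 5 rose and 0 fell (1.39% and 0.193% of all genes), and 11 were higher at an unadjusted p under 0.05 (5.98% of all genes). The median log2 change was 0.86 over the list (0.79 in WT, 1.12 in Per1-/- and 0.57 in Per2-/-) and -0.02 over all genes. DESeq2 called 9 of the list, with 517 rises over all genes.

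The secreted products had the largest changes of the 5. Adipoq, which encodes the hormone adiponectin, was at 0.0662, 1.42 and 0.937 CPM on day 7 in WT, Per1-/- and Per2-/- and at 13.4, 41.3 and 8.98 CPM on day 10, a log2 change of 4.93 ± 0.74 (adjusted p = 0.0185). The groups did not overlap, and Per1-/- was highest on both days. Retn, which encodes the adipocyte hormone resistin, went from 0.246, 1.39 and 0.264 CPM to 12, 27.1 and 7.45 CPM (4.80 ± 0.58, adjusted p = 0.00592). Cfd, which encodes the secreted protease adipsin, was carried by only 5, 33 and 9 UMI on day 7 and by 413, 1099 and 1296 UMI on day 10 (adjusted p = 0.000944). The lipid carrier and droplet genes moved the same way. Fabp4, the fatty acid binding protein of adipocytes, was at 22.7, 94.2 and 35.8 CPM on day 7 and at 306, 644 and 156 CPM on day 10 (2.84 ± 0.43, adjusted p = 0.019). Plin1, which coats the lipid droplet, rose from 0.284, 2.05 and 0.611 CPM to 8.36, 15.2 and 3.66 CPM (3.34 ± 0.47, adjusted p = 0.013).

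The regulators were higher in each genotype but did not pass. Pparg was at 5.67, 14.2 and 6.12 CPM on day 7 and at 9.82, 31 and 10.3 CPM on day 10 (0.92 ± 0.34, adjusted p = 0.411). Cebpa, which macrophages also express, was at 15, 30.5 and 15.7 CPM and then at 29, 62.3 and 24.6 CPM (0.88 ± 0.22, adjusted p = 0.163). Scd1, the stearoyl-CoA desaturase, on chromosome 19, was at 21.4, 27.5 and 25.6 CPM and then at 73.6, 141 and 44.5 CPM (1.73 ± 0.35, adjusted p = 0.0656). Dlk1, which marks preadipocytes and restrains their differentiation, had a log2 change of 0.29 ± 0.25 (adjusted p = 0.721). Among genes of other lists, Rbp4, the plasma carrier of retinol, which also lies on chromosome 19, rose from 0.686, 3.49 and 1.09 CPM to 12.8, 26.4 and 8.74 CPM (3.32 ± 0.36, adjusted p = 0.00311). Apoc1, a lipoprotein component, rose from 2.1, 8.88 and 7.08 CPM to 25.6, 39.7 and 24.2 CPM (2.41 ± 0.43, adjusted p = 0.0391). Rarres2, which encodes the adipokine chemerin, rose from 14.4, 18 and 15.5 CPM to 25.4, 52.4 and 49 CPM (1.37 ± 0.21, adjusted p = 0.0199).

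On day 10 most UMI of Fabp4 and Rbp4 came from few cells. A gate of at least 3 of 12 genes of mature adipocytes, chosen after the data were seen, held 6, 20 and 18 cells on day 7 and 146, 129 and 53 cells on day 10 in WT, Per1-/- and Per2-/-. These are 0.0698%, 0.313% and 0.161% of cells on day 7 and 2.13%, 1.41% and 0.444% on day 10. The share was higher in 3 of 3 genotypes, by 1.15 ± 0.891 percentage points (SD, n = 3), a description without a test because the gate was chosen with the rises known, and an exact two-sided sign-flip permutation test of 3 pairs cannot give a p below 0.25. With each cell thinned to 3000 UMI the gate held 0, 4 and 3 cells and then 103, 57 and 20. On day 10 the gated cells carried 84.9%, 90.9% and 81.2% of the Fabp4 UMI, although Fabp4 was not one of the 12 genes, and Fabp4 was found in 97.9%, 96.1% and 88.7% of them against 17.5%, 23.2% and 17.8% of all other cells. They also held 88.1%, 93.1% and 75.4% of the Rbp4 UMI. On day 7 the gated cells had carried 5.99%, 47.1% and 59.5% of the Fabp4 UMI. In WT on day 10, 62.3% of the gated cells had under 8000 UMI. The median depth of the gated cells on day 10 was 5575, 41922 and 40674 UMI in WT, Per1-/- and Per2-/-. Over all kept cells of these libraries it was 11514, 18628.5 and 17139.5 UMI. At least 6 fibroblast markers were found in 74.0%, 59.7% and 41.5% of the gated cells. Whether they are the same kind of cell in each genotype, or doublets, was not tested.

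**Figure D2:**
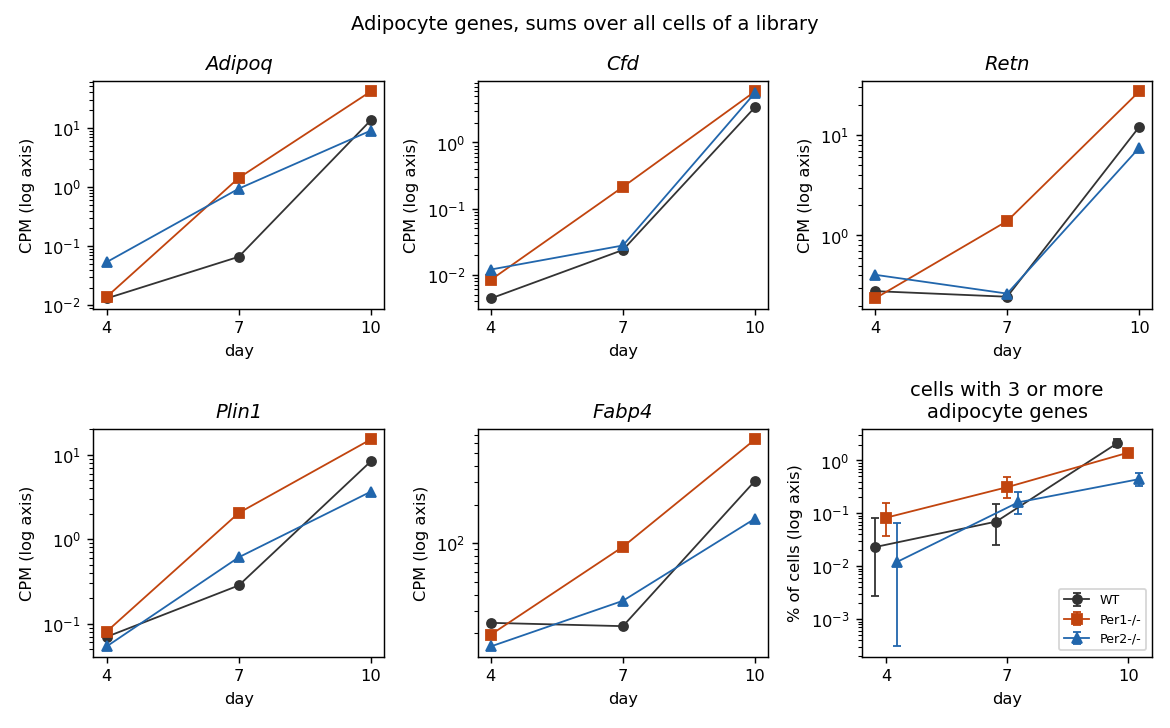
CPM of Adipoq, Cfd, Retn, Plin1 and Fabp4 (log axes) in the sums of all kept cells of each library on days 4, 7 and 10, and the percent of cells with at least 3 of 12 adipocyte genes with 95% Clopper-Pearson intervals (log axis). Each line is 1 genotype, and for each of the 5 genes all 3 libraries of day 10 lie above all 3 of day 7.

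The adipogenesis count rested on some libraries more than others. It fell to 2 without WT on day 10 and to 2 without Per1-/- on day 10, and the remaining omissions of 1 library left 5 or 6. With cells of at least 8000 UMI alone it was 5, and without cells above 2.5 times the median UMI of their library, which may hold doublets, it was 3. The adjusted p of Adipoq was 0.0873 without Per1-/- on day 7, 0.053 without WT on day 10 and 0.137 without Per1-/- on day 10. That of Plin1 was 0.0543 without WT on day 10 and 0.0673 without Per1-/- on day 10. Fabp4 lost its call without Per2-/- on day 7 and without WT or Per1-/- on day 10 (0.0773, 0.0884 and 0.0949). Cfd and Retn kept theirs in all 6 omissions, but Cfd did not pass over all barcodes (0.0704) nor Retn without cells above 2.5 times the median UMI (0.0787). Without a genotype term Adipoq, Plin1 and Fabp4 did not pass (0.0718, 0.108 and 0.0893), and Fabp4 did not without cells above 2.5 times the median UMI either (0.0735). Rbp4 did not pass without cells above 2.5 times the median UMI, where its log2 change was 2.01 (0.109), nor without a genotype term (0.0563). Apoc1 did not pass without those cells, at 1.42 (0.197), with each cell thinned to 3000 UMI, at 1.55 (0.223), or without a genotype term (0.0574). With 1 library left out Apoc1 passed in the omission of WT on day 7 alone, and Rarres2 in that of WT on day 10 alone.

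Igf2, a fetal growth factor whose gene overlaps another on the same strand, was also much higher. How many cells carried it was not counted. Whole cultures had 44, 32.5 and 36.7 CPM on day 7 and 664, 1100.5 and 379.8 CPM on day 10 (log2 change 4.18 ± 0.46, adjusted p = 0.00345). The log2 change was 4.72 in macrophage-gated, 4.17 in neuron-gated and 4.14 in fibroblast-gated cells, so that, as for Mrpl53 and Ptp4a1, values of like size were seen in the 3 kinds of cells. Whether the gene table sets this value was not tested.

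Genes of Schwann cells also gave calls in whole cultures. These glia of peripheral nerves arise from the neural crest under Sox10, pass through a precursor stage with Cdh19 and Gap43, and then either myelinate axons, with Pmp22 and Mbp among the myelin proteins, or ensheath them without myelin. Of the 19 genes of the Schwann lineage list 4 rose and 0 fell (1.39% and 0.193% of all genes), 12 were higher at an unadjusted p under 0.05 (5.98% of all genes), and the median log2 change was 0.60 (0.55 in WT, 0.35 in Per1-/-, 0.88 in Per2-/-). DESeq2 called 10, with 517 rises over all genes. The edgeR count was 1 when WT or Per2-/- was left out of either day, and was 5 without either Per1-/- library.

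Sox10, the transcription factor that specifies the lineage, was at 11.4, 10.1 and 12.4 CPM on day 7 and at 20.8, 15.7 and 41.3 CPM on day 10 (log2 change 1.08 ± 0.19, adjusted p = 0.0385). Every library of day 10 was above every one of day 7, and Per2-/- was highest. Gfra3, the receptor subunit for artemin, rose from 0.79, 1.53 and 1.36 CPM to 4.72, 4.53 and 11.7 CPM (2.45 ± 0.38, adjusted p = 0.0214), and it lies on chromosome 18. Cdh19, a cadherin of Schwann cell precursors, rose from 10.8, 9.25 and 13.5 CPM to 19.3, 13.1 and 18.4 CPM (0.60 ± 0.11, adjusted p = 0.0499), where the lowest library of day 10 lies below the highest of day 7. Erbb3, the neuregulin receptor, had a log2 change of 0.93 and did not pass (adjusted p = 0.0655). The call for Sox10 held only without Per1-/- on day 7, with adjusted p of 0.0526 to 0.146 in the other omissions of 1 library. Gfra3 lost its call without WT or Per2-/- on either day (0.0711 to 0.156), and Cdh19 in all 6 omissions (0.065 to 0.268). With all libraries of both days kept, Sox10 did not pass in a fit of these 6 libraries alone or without a genotype term (0.0951 and 0.288), and Cdh19 did not in 5 alternatives (0.0593 to 0.476).

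Cells with at least 3 of 12 Schwann markers were 2.5%, 2.89% and 3.06% of the cells on day 7 and 5.24%, 4.26% and 9.01% on day 10 in WT, Per1-/- and Per2-/-. The share was higher in 3 of 3 genotypes, by 3.35 ± 2.35 percentage points (SD, n = 3), with p = 0.25 in the exact two-sided sign-flip permutation test, the smallest p that 3 pairs allow. In cells of at least 8000 UMI it was higher by 3.02 points. Summed CPM of the 12 markers went from 97.5, 117 and 105 to 180, 186 and 245.

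Within the Schwann-gated cells, a comparison added after the data were seen, 178 of 12042 genes rose (1.48%) and 67 fell (0.556%). At least 6 fibroblast markers were found in 11.2%, 33.5% and 14.0% of these cells on day 7 and in 45.4%, 28.7% and 11% on day 10, and the part of this in the values was not tested. Of the 17 genes of the Schwann lineage list tested there 5 rose and 1 fell, and the median log2 change was 0.22, against 0.0019 over all genes. Of the 17, 9 are markers of the gate, and of the 8 others 2 rose and 1 fell. Pmp22, a structural protein of compact myelin, went from 199, 172 and 174 CPM to 346, 486 and 407 CPM (log2 change 1.19 ± 0.18, adjusted p = 0.00904). Mag, which joins myelin to the axon, went from 0.518, 1.23 and 1.07 CPM to 4.31, 5.8 and 3.44 CPM (2.15 ± 0.40, adjusted p = 0.0294). Neither gene was used by the gate, and the days did not overlap for either. Gap43, a growth protein of immature Schwann cells and growth cones, fell from 1521, 1633 and 1145 CPM to 789, 571 and 414 CPM (-1.29 ± 0.24, adjusted p = 0.027). Mbp and Gfra3 were higher too, and they are markers of the gate: Mbp was at 6.47, 10.5 and 5.74 CPM and then at 22, 86.9 and 25.3 CPM. Sox10 and Erbb3, likewise gate markers, had log2 changes of -0.02 and -0.16 in these cells and did not pass.

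**Figure D3:**
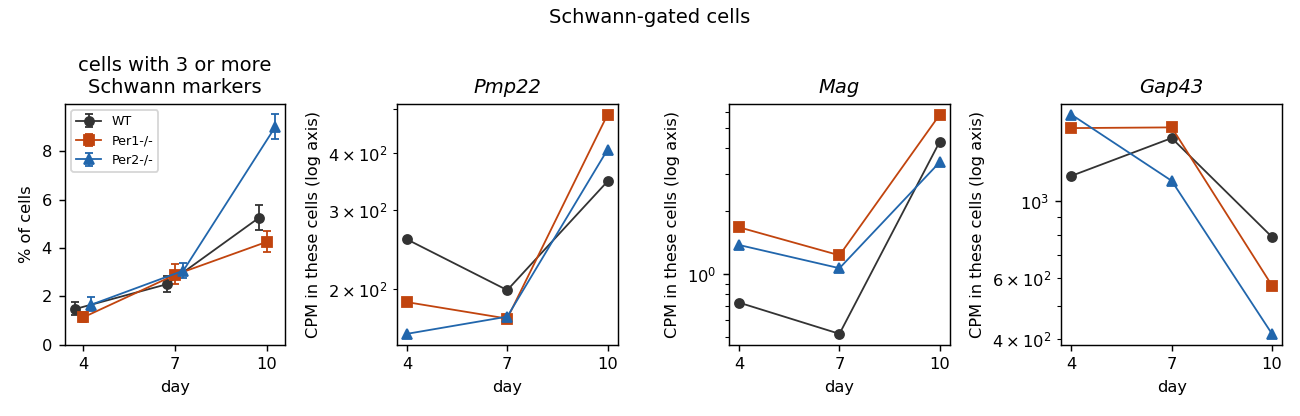
Percent of cells with at least 3 of 12 Schwann markers (95% Clopper-Pearson intervals) and, within those cells, CPM of Pmp22, Mag and Gap43 (log axes) on days 4, 7 and 10, 1 line per genotype. All 3 libraries of day 10 lie above those of day 7 for Pmp22 and Mag and below them for Gap43, which fell to 789, 571 and 414 CPM.

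The Schwann-gated cells also differed in genes of the immediate early response, which cells switch on within minutes of a stimulus or of dissociation. Of 20 genes tested 4 rose and 0 fell, where 1.48% of all genes rose and 0.556% fell. Ier2 went from 59.3, 58.4 and 64.4 CPM to 111, 93.6 and 155 CPM (0.97 ± 0.14, adjusted p = 0.00823). Fosb went from 18.6, 9.23 and 15.9 CPM to 32.2, 46.1 and 49.8 CPM (1.55 ± 0.23, adjusted p = 0.00896). Atf3, a stress-induced member of the list, was at 214, 133 and 96.6 CPM and then at 71.2, 58 and 24.6 CPM, which did not pass (-1.56 ± 0.35, adjusted p = 0.0666).

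In neuron-gated cells the list with the most calls was cholesterol synthesis. The pathway runs from acetyl-CoA through mevalonate and squalene to cholesterol, its genes are switched on together by the factor SREBP-2 when sterols are low, and neurons need the product for membranes and synapses. SREBP-2 binds sterol regulatory elements and acts with NF-Y, which binds the box CCAAT. RefSeq promoters (GRCm38.p6, 250 bases before to 50 after the start of transcription) were at hand for 14 of the 22 genes. The counts that follow take in every gene with a promoter at hand, whether or not it was tested or rose here. Their relation to the change between the days was not tested. CCAAT, read on both strands, was in 14 of the 14, against 41.1% of the 27025 genes of the table, 4 of 17 of the synaptic vesicle list and 5 of 13 of the adipogenesis list. The letters TCACNCCAC, a form of the sterol regulatory element, were in 1 of the 14, in 1.44% of all genes, in 2 of 17 of the synaptic vesicle list and in 0 of 13 of the adipogenesis list. The 150 bases before the start site are shown for 4 genes that passed below, as examples of how the boxes lie, with CCAAT or its reverse complement ATTGG and, in Hmgcs1, the sterol element in capitals. Hmgcs1 is at chr13:119690201-119690350, plus strand. Nsdhl is at chrX:72918371-72918520, plus strand. Idi1 is at chr13:8885456-8885605, plus strand. Msmo1 is at chr8:64733579-64733728, minus strand.
Hmgcs1: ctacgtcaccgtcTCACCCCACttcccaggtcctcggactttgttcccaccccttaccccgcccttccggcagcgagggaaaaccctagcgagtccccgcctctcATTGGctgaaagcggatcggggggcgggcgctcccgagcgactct
Nsdhl: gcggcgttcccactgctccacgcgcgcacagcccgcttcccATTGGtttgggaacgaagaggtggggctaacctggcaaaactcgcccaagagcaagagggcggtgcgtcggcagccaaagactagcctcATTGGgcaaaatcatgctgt
Idi1: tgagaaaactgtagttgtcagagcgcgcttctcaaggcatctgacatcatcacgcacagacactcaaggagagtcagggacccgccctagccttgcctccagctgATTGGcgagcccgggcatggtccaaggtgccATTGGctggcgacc
Msmo1: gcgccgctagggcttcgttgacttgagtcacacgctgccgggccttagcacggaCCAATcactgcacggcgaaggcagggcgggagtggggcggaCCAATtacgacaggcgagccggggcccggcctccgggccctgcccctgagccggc

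Of 14713 genes tested in neuron-gated cells 375 rose (2.55%) and 200 fell (1.36%), and 11.9% were higher and 10.8% lower at an unadjusted p under 0.05. The calls numbered 865 and 534 without WT on day 10. They numbered 166 to 196 and 36 to 58 without Per2-/- on day 10 or any library of day 7, and 265 and 82 without Per1-/- on day 10. Of the 22 genes of cholesterol synthesis 15 rose and 0 fell, and 20 were higher at an unadjusted p under 0.05. The median log2 change was 0.73 (0.84 in WT, 0.81 in Per1-/-, 0.46 in Per2-/-) and 0.00 over all genes. At the entry, Hmgcs1, the synthase that makes HMG-CoA, rose and was at 127, 132 and 185 CPM on day 7 and at 254, 296 and 242 CPM on day 10 (0.85 ± 0.14, adjusted p = 0.011).

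The isoprenoid steps followed. Idi1, the isopentenyl diphosphate isomerase, went from 28.1, 28.4 and 49.2 CPM to 78.6, 87.8 and 82 CPM (1.25 ± 0.16, adjusted p = 0.00331). Fdft1, the squalene synthase, went from 65.5, 66.6 and 92.1 CPM to 102, 120 and 143 CPM (0.70 ± 0.09, adjusted p = 0.00257). The days did not overlap for either gene. Fdps, the farnesyl diphosphate synthase, had the largest change of the list (1.95 ± 0.16), but it overlaps another gene and rose in fibroblast-gated cells too. In whole cultures Fdps had first fallen, from 57.8, 58.5 and 59.3 CPM on day 4 to 27.3, 46.6 and 44.5 CPM on day 7. That log2 change was -0.61 in edgeR (adjusted p = 0.0397). On day 10 Fdps was at 67.4, 105.6 and 92.1 CPM there. Mvk, Pmvk and Mvd, the enzymes between mevalonate and the isoprenoids, rose by 0.73, 0.63 and 0.77.

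The sterol steps rose as well. Msmo1, a methylsterol monooxygenase, went from 62.4, 58.2 and 88.8 CPM to 114, 133 and 150 CPM (0.93 ± 0.10, adjusted p = 0.000885). Nsdhl, which removes the same methyl groups further along, went from 16.9, 14.7 and 20.9 CPM to 33.7, 33.8 and 40.8 CPM (1.04 ± 0.10, adjusted p = 0.000676). Sqle, the squalene epoxidase, Cyp51, a sterol demethylase, and Dhcr7, a reductase of the last steps, rose by 0.68, 0.52 and 0.73. Insig1, which holds SREBP in the endoplasmic reticulum when sterols are plentiful and is itself an SREBP target, went from 22.8, 29.5 and 34.6 CPM to 60.8, 76.2 and 56.2 CPM (1.14 ± 0.14, adjusted p = 0.00274). Srebf2, which encodes SREBP-2, had a log2 change of 0.35 and did not pass (adjusted p = 0.0593). Hsd17b7, which acts late in the pathway, had a log2 change of 0.23 and was not higher at an unadjusted p under 0.05.

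The count was also 15 of 22 in neuron-gated cells with at least 8000 UMI and in those with fewer than 2 Schwann markers. In the latter 2.28% of genes rose and 1.07% fell. It ranged from 8 to 16 with 1 library left out, being lowest without Per1-/- on day 7, 10 without WT on day 7 and 10 without Per1-/- on day 10, and DESeq2 called 18, with 513 rises over all genes. At least 6 fibroblast markers were found in 49.8% of the neuron-gated cells of WT on day 10 and in 7.1% to 12.9% of those of the 5 remaining libraries, and the part of this in the counts was not tested beyond leaving that library out, which gave 13.

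**Figure D4:**
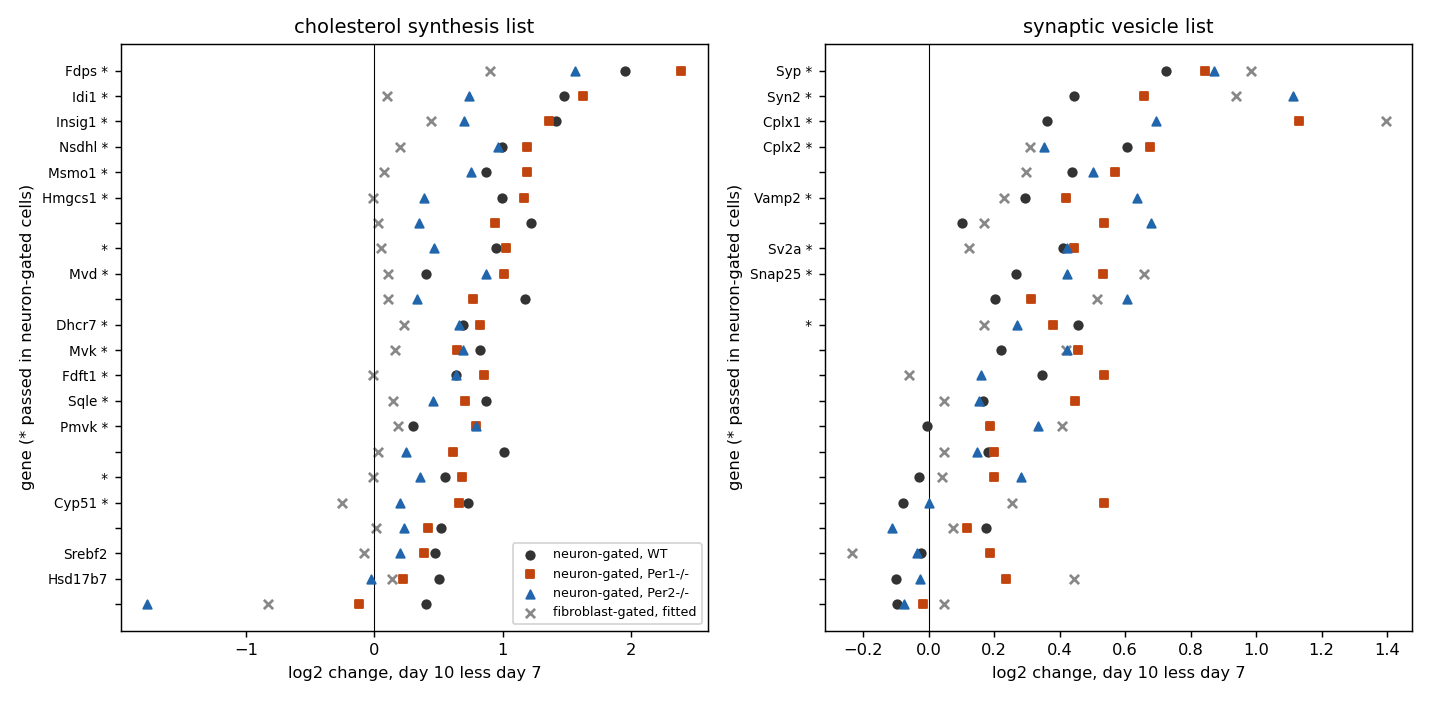
Log2 change from day 7 to day 10 of the genes of the cholesterol synthesis and synaptic vesicle lists in neuron-gated cells, 1 point per genotype and names for the genes described in the text, with the fitted change in fibroblast-gated cells as a cross and an asterisk on those that passed in neuron-gated cells. For cholesterol synthesis the points lie to the right of most crosses, with medians of 0.73 and 0.08, and for synaptic vesicle genes points and crosses lie together, with medians of 0.37 and 0.24.

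Fibroblast-gated cells of the same libraries gave few calls in this list. There 1 of the 22 genes rose, Fdps (1.14% of all genes), and the median log2 change was 0.08. Hmgcs1 was at 78.7, 110 and 98.5 CPM on day 7 and at 96.8, 113 and 73.8 CPM on day 10 in those cells. The difference between the kinds of cells was tested in the same libraries, a comparison added after the data were seen, in which 62 of 17516 genes changed more in neuron-gated cells (0.354%) and 26 changed less (0.148%). Fdps, Fdft1, Msmo1, Idi1 and Hmgcs1 passed, and 20 of the 22 genes were higher at an unadjusted p under 0.05 (9.03% of all genes), with a median difference of 0.63. The difference of the log2 changes was 1.14 ± 0.19 for Idi1 (adjusted p = 0.0397), 0.85 ± 0.13 for Msmo1 (adjusted p = 0.0283) and 0.87 ± 0.15 for Hmgcs1 (adjusted p = 0.0496). With at least 8000 UMI per cell, where 0.976% of genes changed more and 0.318% less, 9 passed. With fewer than 2 Schwann markers in the neuron gate, where 0.309% of genes changed more and 0.126% less, 4 passed. Schwann-gated cells had a median log2 change of 0.58 for the list, with 2 of 21 called (1.48% of all genes) and 17 higher at an unadjusted p under 0.05 (7.57% of all genes), and macrophage-gated cells one of 0.41 with 0 called by edgeR and 7 higher at an unadjusted p under 0.05 (6.90% of all genes).

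Of 22 genes of synaptic vesicles, which store and release transmitter, 8 rose and 0 fell in neuron-gated cells (2.55% and 1.36% of all genes), and 13 were higher at an unadjusted p under 0.05 (11.9% of all genes). Of the 20 that are not markers of the gate 7 rose. Syp, which encodes synaptophysin of the vesicle membrane, was at 40.1, 37.9 and 49.8 CPM on day 7 and at 66.4, 68.1 and 91.3 CPM on day 10 (log2 change 0.81 ± 0.11, adjusted p = 0.00419). On day 4 it had been at 14.4, 18.5 and 18.4 CPM. Vamp2, the vesicle SNARE, went from 199, 227 and 198 CPM to 245, 304 and 308 CPM (0.45 ± 0.08, adjusted p = 0.0241), and Cplx2, a complexin that clamps fusion, from 73.6, 93.2 and 81.6 CPM to 112, 149 and 104 CPM (0.55 ± 0.10, adjusted p = 0.0248). Sv2a, Cplx1 and Syn2 passed as well, and Snap25, which passed, is a marker of the gate. For this list no difference between the kinds of cells was called. Of the 22 genes 0 passed in edgeR's comparison of neuron-gated with fibroblast-gated cells, 5 were higher at an unadjusted p under 0.05 (9.03% of all genes), and the median difference was 0.05. The count of 8 fell to 1 without WT, Per1-/- or Per2-/- on day 7 or Per1-/- on day 10, to 2 without Per2-/- on day 10 and to 3 in a fit of the 6 libraries alone, and rose to 11 without WT on day 10.

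Of 16 granin and neuropeptide genes tested in neuron-gated cells 2 rose and 1 fell, and of 20 genes of the neuronal cytoskeleton and growth cone 3 rose and 0 fell, where 2.55% of all genes rose and 1.36% fell. Vgf, which encodes a secreted neuronal peptide precursor, went from 19.9, 15.7 and 25.2 CPM to 30.6, 31 and 50.7 CPM (0.87 ± 0.12, adjusted p = 0.00434). Pcsk1n, which encodes the prohormone convertase inhibitor proSAAS, went from 147, 134 and 189 CPM to 248, 247 and 430 CPM (0.95 ± 0.13, adjusted p = 0.00559). Gal, the neuropeptide galanin, on chromosome 19, fell from 48.1, 174 and 37.5 CPM to 10.2, 5.82 and 17.2 CPM (-2.66 ± 0.57, adjusted p = 0.038), a call lost without WT on day 7 or without any library of day 10 (0.0518 to 0.0876) and in the 6 libraries alone (0.0809). Mapt, the axonal microtubule protein tau, went from 303, 300 and 343 CPM to 417, 536 and 517 CPM (0.63 ± 0.09, adjusted p = 0.00529). Stmn3 and Gap43 rose by 0.95 and 0.90 and are markers of the gate. Of 27 nuclear genes of oxidative phosphorylation 3 rose and 17 were higher at an unadjusted p under 0.05 (11.9% of all genes), and Cox5a, a subunit of cytochrome c oxidase, was at 303, 314 and 300 CPM and then at 369, 455 and 452 CPM.

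Among the reprogramming factors, whose UMI come from the virus and from the cells' own genes where the 3′ end is shared, Myt1l fell. In neuron-gated cells it was at 186, 170 and 123 CPM on day 7 and at 96.1, 75.8 and 69.6 CPM on day 10 (log2 change -0.99 ± 0.16, adjusted p = 0.0134), and the days did not overlap. In whole cultures Myt1l went from 21.5, 9.4 and 10.6 CPM to 10.1, 3.23 and 7.07 CPM (-1.07 ± 0.19, adjusted p = 0.0407), a call lost without any library of day 10 or without WT or Per1-/- on day 7, and in 5 alternatives that kept all libraries of both days (0.0506 to 0.611). Pou3f2 was at 327, 168 and 283 CPM and then at 182, 152 and 183 CPM in whole cultures (-0.54 ± 0.15, adjusted p = 0.191).

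Mitosis genes, which neurons should lack, had low levels in neuron-gated cells, and few of them passed between the days. Of 22 genes 2 rose (2.55% of all genes), 16 were higher at an unadjusted p under 0.05 (11.9% of all genes), and the median log2 change was 0.76. Cdk1, the kinase that starts mitosis, was at 4.65, 2.05 and 6.08 CPM and then at 13.1, 7.11 and 10.7 CPM (1.22 ± 0.26, adjusted p = 0.038). Ube2c, of the anaphase-promoting complex, was at 2.74, 5.6 and 5.35 CPM and then at 9.57, 9.22 and 10.9 CPM (1.18 ± 0.24, adjusted p = 0.0319). Neuron-gated cells with at least 2 Schwann markers were 2.44%, 2.72% and 2.99% on day 7 and 9.77%, 3.31% and 7.78% on day 10. Without those cells 0 of the 22 passed in edgeR, 2 were higher at an unadjusted p under 0.05 (11.4% of all genes), and the median log2 change was 1.34, 0.66 and -0.27 in WT, Per1-/- and Per2-/-. At least 6 fibroblast markers were found in 49.8% of the neuron-gated cells of WT on day 10. In the other libraries of both days they were found in 7.1% to 12.9%. The part of either kind of cell in the mitosis values was not tested further.

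Fibroblast-gated cells, the largest class, gave 197 rises (1.14% of 17322) and 39 falls (0.225%), with 6.65% of genes higher and 4.73% lower at an unadjusted p under 0.05. Of 23 collagens 3 fell and 0 rose, and 3 were higher and 3 lower at an unadjusted p under 0.05. Of 30 other matrix genes 1 fell and 0 rose, and 11 were lower at an unadjusted p under 0.05. The median log2 change was -0.13 for the collagens and -0.22 for the other matrix genes, against -0.0021 over all genes. Col12a1, a fibril-associated collagen, went from 204, 259 and 240 CPM to 147, 113 and 89.7 CPM (log2 change -1.03 ± 0.17, adjusted p = 0.0324). Col24a1, a minor fibrillar collagen, was below 1.4 CPM on both days, and Col7a1, of anchoring fibrils, overlaps another gene. Tgfbi, a matrix protein named for its induction by TGF-beta, went from 39.6, 60.6 and 52.3 CPM to 26.2, 35.2 and 26.2 CPM (-0.78 ± 0.13, adjusted p = 0.0297). For Col12a1 and Tgfbi the days did not overlap. On day 4 Col12a1 had been at 284 to 319 CPM and Tgfbi at 47.9 to 72 CPM.

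Contractile genes of the myofibroblast were lower but did not pass. Of 20 genes 0 were called by edgeR in fibroblast-gated cells, 10 were lower and 1 higher at an unadjusted p under 0.05 (4.73% and 6.65% of all genes), and the median log2 change was -0.36 (-0.09 in WT, -0.65 in Per1-/-, -0.35 in Per2-/-). Acta2, the smooth muscle actin, on chromosome 19, was at 180, 228 and 269 CPM on day 7 and at 168, 84.1 and 157 CPM on day 10 (-0.72 ± 0.28, adjusted p = 0.402). Tpm1, a tropomyosin of stress fibres, was at 1102, 967 and 1399 CPM and then at 950, 541 and 853 CPM (-0.57 ± 0.20, adjusted p = 0.338). In both the decrease was smallest in WT. Adipoq, Plin1 and Cfd of the adipogenesis list passed in fibroblast-gated cells too, and 77, 69 and 20 of the cells in the adipocyte gate on day 10 were also in the fibroblast gate. Col15a1, a basement membrane collagen, was higher in each genotype, at 15, 46.2 and 9.88 CPM and then at 39.5, 105 and 26.7 CPM, and did not pass (1.32 ± 0.37, adjusted p = 0.213).

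Macrophage-gated cells gave 158 rises (1.11% of 14241) and 25 falls (0.176%), with 6.90% of genes higher and 4.83% lower at an unadjusted p under 0.05. Of 21 genes of the macrophage lineage 0 were called by edgeR, with 1 higher and 1 lower at an unadjusted p under 0.05 and a median log2 change of -0.05. Of these 21 genes 6 are markers of the gate, whose levels the gate partly sets, among them Csf1r, the receptor for the growth factor CSF1. Of the 15 others 0 were called by edgeR, 1 was higher and 0 lower at an unadjusted p under 0.05, and the median was -0.05. Ccl8, a chemokine of tissue macrophages, rose from 25.2, 163 and 105 CPM to 140, 398 and 377 CPM (log2 change 1.80 ± 0.34, adjusted p = 0.0487), with WT on day 10 below Per1-/- on day 7. Slc16a3, which exports lactate, fell from 4.52, 6.23 and 3.72 CPM to 2.12, 2.28 and 1.62 CPM (-1.26 ± 0.18, adjusted p = 0.0115), and the days did not overlap. Of the macrophage-gated cells of WT on day 10, 71.3% had at least 6 fibroblast markers and 69.9% had under 8000 UMI. The part of this in the values of Ccl8 and Slc16a3 was not tested.

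DNA replication genes were lower in macrophage-gated cells but did not pass. Of 20 genes 0 were called by edgeR, 13 were lower at an unadjusted p under 0.05 (4.83% of all genes), and the median log2 change was -0.48 (-0.47 in WT, -0.23 in Per1-/-, -0.76 in Per2-/-). Mcm3, a subunit of the replicative helicase, was at 81.1, 67.5 and 52.7 CPM on day 7 and at 47.2, 55.1 and 28.7 CPM on day 10 (-0.64 ± 0.18, adjusted p = 0.22). Uhrf1, which maintains DNA methylation at the fork, on chromosome 17, was at 37.4, 28 and 18.7 CPM and then at 23.5, 21.4 and 8.3 CPM (-0.71 ± 0.24, adjusted p = 0.315). With at least 8000 UMI per cell 11 were lower at an unadjusted p under 0.05 (3.66% of all genes). Pcna, the sliding clamp, went the other way in these cells (0.45 ± 0.15, adjusted p = 0.309) and rose in whole cultures from 40.1, 53.3 and 41.4 CPM to 65.1, 89.2 and 64.7 CPM (0.70 ± 0.07, adjusted p = 0.00196), a call lost without a genotype term (0.167). Against fibroblast-gated cells of the same libraries 0 of 16790 genes changed more in macrophage-gated cells (0%) and 3 changed less (0.0179%) by edgeR, with 689 at an unadjusted p under 0.05 in either direction.

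Among the lists, macrophage lineage had the largest share of genes whose course over the 3 days was called. The change from day 7 to day 10 was tested against that from day 4 to day 7 in whole cultures, and it was larger for 126 genes (0.674%) and smaller for 377 (2.02%). Of the 21 genes of the macrophage lineage 12 were among the latter and 0 among the former. Csf1r, which lies on chromosome 18, went from 12.1, 23.4 and 16.3 CPM on day 4 to 40.6, 183 and 98.6 CPM on day 7 and then to 49.7, 146 and 94.1 CPM on day 10 (log2 difference of the changes -2.50 ± 0.33, adjusted p = 0.00743). C1qb, a chain of complement C1q, went from 59.8, 144 and 79.8 CPM to 214, 828 and 349 CPM and then to 239.5, 710.3 and 388 CPM (-2.14 ± 0.22, adjusted p = 0.00294). The steep climb before day 7 was thus followed by levels near those of day 7. The complement list had 6 such genes of 17 and the chemokine list 5 of 23. Adipocyte genes did not pass in this contrast, with Retn at 4.19 ± 1.02 (adjusted p = 0.101) and Fabp4 at 1.73 ± 0.73 (adjusted p = 0.414). From day 4 to day 7 Adipoq and Plin1 had risen by 5.02 and 3.66 in edgeR (adjusted p = 0.0245 and 0.00727). Adipoq was at 0.0131, 0.0139 and 0.0538 CPM on day 4. Cfd, Retn and Fabp4 did not pass over that interval (3.22, 0.61 and 1.11, adjusted p = 0.0536, 0.567 and 0.142). Sox10, Gfra3 and Cdh19 had risen by 1.08, 1.775 and 0.81 (adjusted p = 0.0131, 0.0294 and 0.00457).

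Of the macrophage, neuron and fibroblast gates, only the neuron gate had a share that moved the same way in all 3 genotypes. Neuron-gated cells were 10.5%, 5.17% and 8.69% of cells on day 7 and 7.77%, 4.29% and 8.40% on day 10 in WT, Per1-/- and Per2-/-, lower in 3 of 3 genotypes by 1.29 ± 1.27 percentage points (SD, n = 3; exact two-sided sign-flip permutation p = 0.25, the smallest possible). The mean change of the neuron-gated share was -0.582 points without WT and -0.448 points with 1 marker fewer. In Per2-/- the change was -0.282 points, and -0.0679 points in cells of at least 8000 UMI. Summed CPM of the 12 neuron markers in whole cultures did not fall alike. It went from 647, 340 and 559 on day 7 to 637, 332 and 764 on day 10 in WT, Per1-/- and Per2-/-. Macrophage-gated cells were 8.17%, 26.7% and 13.6% and then 18.9%, 19.4% and 11.2%, higher in WT and lower in both mutants (exact permutation p = 1.0). In cells of at least 8000 UMI the change in WT shrank from 10.7 to 1.86 points, while Per1-/- and Per2-/- were at -7.07 and -2.09. Fibroblast-gated cells were 66.3%, 58.2% and 65.7% and then 63.2%, 65.7% and 62.8% (exact permutation p = 1.0). Cells with at least 3 skeletal muscle markers were under 0.62% in all 6 libraries and lower on day 10 in 3 of 3 genotypes, by 0.113 to 0.151 points.

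**Figure D5:**
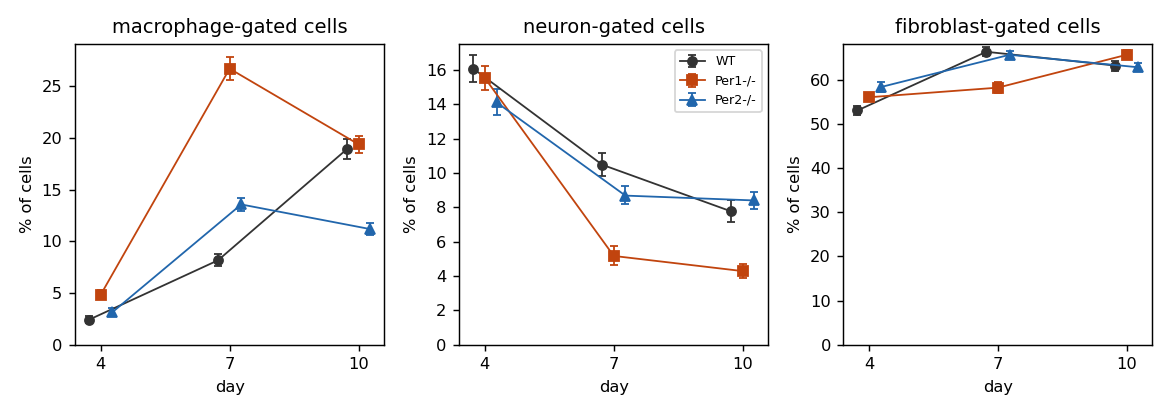
Percent of kept cells in the macrophage, neuron and fibroblast gates on days 4, 7 and 10, with 95% Clopper-Pearson intervals for counting error, 1 line per genotype. Neuron-gated cells fall from 14.1% to 16.1% on day 4 to 4.29% to 8.40% on day 10, and macrophage-gated cells of WT and Per1-/- are at 18.9% and 19.4% on day 10 (10.1% and 19.8% in cells of at least 8000 UMI).

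Several lists had 0 genes called in whole cultures by edgeR, among them lysosome, interferon response, TNF and NF-kB response, mitosis, immediate early genes and the core clock. Of 28 lysosome and 35 interferon response genes 0 also passed an unadjusted p under 0.05 in either direction, of 30 TNF and NF-kB response genes 2 were lower, of 20 clock genes 1 was higher and 1 lower, and of 20 contractile genes 9 were lower. Of all genes tested 1.39% rose and 0.193% fell, and 5.98% were higher and 4.21% lower at an unadjusted p under 0.05. Single members of other lists passed. Rspo3, which amplifies Wnt signals, rose from 163, 200 and 176 CPM to 221, 272 and 257 CPM (log2 change 0.48 ± 0.07, adjusted p = 0.0205), and Stc1, the secreted hormone stanniocalcin, from 10.1, 6.61 and 13.7 CPM to 15.6, 12.1 and 27 CPM (0.83 ± 0.15, adjusted p = 0.0476). The days did not overlap for Rspo3 and overlapped for Stc1. Rspo3 passed in the omission of Per2-/- on day 10 alone, Stc1 in no omission of 1 library. Neither passed without a genotype term (0.145 and 0.531), nor Rspo3 in the 6 libraries alone (0.063). Rpl27, a ribosomal protein, rose from 967, 918 and 1003 CPM to 1351, 1545 and 1747 CPM (0.68 ± 0.10, adjusted p = 0.0178), the 1 call among 40 ribosomal protein genes, which held without WT on day 10 and in no other omission, and was lost in the 6 libraries alone (0.0624).

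The targeted genes gave no check of the genotypes at this level. Per1 was at 6.63, 10.1 and 6.57 CPM on day 7 and at 7.4, 11 and 6.78 CPM on day 10 in WT, Per1-/- and Per2-/-, and Per2 was at 2.81, 2.75 and 5.11 CPM and then at 2.75, 3.26 and 6.61 CPM. The 3′ tags counted here need not lie in the disrupted part of the alleles. Neither passed between the days (adjusted p = 0.764 and 0.666), which does not show equal levels. The sex of the cells differed between libraries. Cells with Xist and no Y-linked UMI, the female pattern, were 70.5% and 72.0% of WT cells on days 7 and 10, 0.0156% and 0% of Per1-/- cells (0 of 9160) and 70.6% and 44.1% of Per2-/- cells. On day 4 they were 67.6% of WT, 42.6% of Per1-/- and 41.0% of Per2-/- cells, so the comparisons with day 4 also span different mixtures of embryos. The spread behind the p-values of the fits of 9 libraries includes day 4 and spans these mixtures too. The part of embryo mixture in the values above was not tested.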

How the data were processed

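Single-cell RNA-seq (10x 3′ v3.1) libraries of reprogrammed MEF cultures were analysed, 1 per genotype and day. The files deposited by the authors are Cell Ranger matrices of whole UMI counts, not normalized and already limited to barcodes called as cells; per the file headers the version was 4.0.0 for days 4 and 7 and 6.0.0 for day 10, whereas the submitters' processing notes name Cell Ranger 7.1 and mm10. Nothing says that libraries are replicate cultures.

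Counts of kept cells were summed per library over the 30406 Ensembl identifiers in both gene tables, which held 99.3% to 99.9% of the UMI, with totals of 113365690 to 326897692 UMI in the 6 libraries of days 7 and 10. The sums of 9 libraries were fitted with edgeR 4.0.16 in R 4.3.3 (TMM, filterByExpr, glmQLFit and glmQLFTest, genotype and day as factors, 4 residual degrees of freedom, Benjamini-Hochberg over all genes tested, threshold 0.05). DESeq2 1.42.0 was an alternative. Gates other than the adipocyte gate used each cell thinned to 3000 UMI. They asked for at least 4 of 12 macrophage or neuron markers, or at least 6 of 12 fibroblast markers in cells of neither gate. For other lists at least 3 markers were asked for. The adipocyte gate of at least 3 of 12 genes used unthinned counts, except where thinning is stated. Sums within gates used unthinned counts. No doublet caller was run. Shares have Clopper-Pearson 95% intervals that cover counting error only, and their difference was tested with an exact two-sided sign-flip test over 3 genotypes. Python 3.11.15 with scipy 1.17.1 was used for shares and motifs. The fits were also run on simulated counts with 1 fixed spread for all genes and no genotype effect. That is a simpler setting than these data.

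The comparison, the markers and the gene lists were chosen with earlier results of these data known. Genes named are the 10 largest rises and falls with a mean of at least 10 CPM, up to 4 members of each list by p (otherwise the 2 of highest CPM), the reprogramming factors and Per1 and Per2, and the 5 largest per gate. Genes named beyond that rule, among them further list members, Igf2 and the genes of Schwann-gated cells, were chosen after their values were seen, as were the adipocyte gate, the comparison between gates, the fits in Schwann-gated cells and in neuron-gated cells with few Schwann markers, the limit of 8000 UMI within gates, and the count without overlapping genes and chromosomes 17, 18 and 19. Some genes are not reported here.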

Additional observations from a re-analysis of the deposited data

Results flagged for a closer look

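The share of macrophage-gated cells moved in opposite directions between genotypes, from day 7 to day 10 by 10.7 percentage points in WT, by -7.31 points in Per1-/- and by -2.38 points in Per2-/-. The share of fibroblast-gated cells moved by 7.45 points in Per1-/-, by -3.12 points in WT and by -2.83 points in Per2-/-. Cells with at least 3 astrocyte markers moved by 1.95 points in WT and by -0.549 points in Per1-/-. These differences between genotypes were not tested, since each genotype had 1 library per day. In cells of at least 8000 UMI the macrophage-gated share of WT moved by 1.86 points and that of cells with astrocyte markers by 0.221 points.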

How the results depend on the processing

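The days were paired by genotype, as a term of the fit and in the sign-flip tests. DESeq2 called 517 rises and 135 falls in whole cultures, 268 and 66 in macrophage-gated cells, 417 and 151 in fibroblast-gated cells, and 298 and 650 for the change after against before day 7. Without overlapping genes and chromosomes 17 to 19, counts were 97 and 13 in whole cultures, 35 and 12 in macrophage-gated cells, 56 and 17 in fibroblast-gated cells, and 195 rises in neuron-gated cells. The 6 libraries alone gave 61 falls in macrophage-gated and 75 in neuron-gated cells. A neuron gate with 2 markers more gave 639 and 419. With at least 8000 UMI, 169 genes changed more and 55 less between the days in neuron-gated than in fibroblast-gated cells. In macrophage-gated cells 1 gene changed more than in fibroblast-gated cells.

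With 1 library left out, rises ranged from 162 to 190 and falls from 21 to 29 in whole cultures. In macrophage-gated cells falls ranged from 14 to 18, and in fibroblast-gated cells rises from 127 to 147 and falls from 19 to 26. In neuron-gated cells rises ranged from 166 (without Per1-/- on day 7) to 865 (without WT on day 10) and falls from 36 to 534, with the highest again without WT on day 10. The cause was not tested. The mean change of the macrophage-gated share became -0.849 points with 2 markers more, -1.09 with 8 of 12 markers unthinned and -2.43 with at least 8000 UMI, and ranged from -4.85 (without WT) to 4.18 (without Per1-/-). That of the fibroblast-gated share became -1.59 with 1 marker fewer and ranged from -2.98 (without Per1-/-) to 2.31 (without WT). Of the values of single named genes under alternatives that kept all libraries, 1053 kept the call or, without one, moved by less than the spread between genotypes, 33 lost the call, 1 gained it and 2 without a call moved by more than that spread. With 1 library left out these counts were 744, 69, 0 and 33. Depth limits WT on day 10 most, with 113365690 UMI.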
